A study of Rattus norvegicus with 6 samples.

Results

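Potassium channel genes were taken as the rat genes whose symbol starts with Kcn, found through the transcript accession of each array probe. Of 91 such genes with a named probe, 49 were measured, that is, had a probe clearly brighter than background (flagged so by the scanner software) on 3 or more of 6 arrays, out of 27506 genes tested in all. RNA came from renal cortex, and the animals were male Sprague-Dawley (Crl:CD(SD)) rats bought at 5 weeks of age. Over 4 weeks 3 rats received potassium bromate, an oxidising salt that is toxic to the kidney, at 100 mg/kg/day, and 3 received water. Each animal gave 1 single-colour array. Bromate and the potassium taken in with it cannot be told apart, because the labels give no group on another potassium salt. The symbols cover more than ion pores: 16 of the 49 genes belong to families of accessory or electrically silent subunits.

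Potassium channels set the membrane voltage of every tubule segment and, in the thick ascending limb and the collecting duct, carry potassium into the tubule lumen. Inward rectifiers (Kcnj) include the luminal channel ROMK and the basolateral channels of the distal nephron. Tandem-pore channels (Kcnk) carry leak currents, several of them set by pH or by stretch. Voltage-gated channels (Kcna to Kcnd, Kcnh and Kcnq) work with accessory subunits of the Kcne, Kcnab and Kcnip families, and the calcium-activated channel BK (Kcnma1) with Kcnmb subunits.

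No spot was saturated, and 35621 to 38801 of 61537 probes per array (57.9% to 63.1%) exceeded background clearly. One slide carried water replicate 1, and a different slide carried the remaining 5 arrays. A level is the log2 signal of a probe minus the log2 of the 75th percentile of its array, and differences are bromate minus water on that log2 scale, ± the standard error, with n = 3 per group throughout. A level of 1 gene is not comparable with that of another, because each comes from its own probe. Markers of renal cortex cells were present: 12 of 12 proximal tubule markers and 9 of 10 podocyte markers were measured. The difference between groups was tested for all 27506 genes in 1 limma fit with Benjamini-Hochberg adjustment, and a gene is said to have risen or fallen where its adjusted p was under 0.05. Replicates are different animals, and their small number limits the precision.

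The comparison asked which channel genes changed in the renal cortex under bromate. Of the 49 measured potassium channel genes 5 rose, 12 fell and 32 did not pass. That is 34.7% called, against 14.5% of all genes tested, with 10.2% against 6.87% for rises and 24.5% against 7.59% for falls. Of the 27506 genes tested, 11572 carried a symbol, as all Kcn genes do, and the others were accessions without one. The share called among genes with a symbol is not given here, so all shares over all genes mix both kinds. The 5 that rose were Kcne5 and the tandem-pore genes Kcnk12, Kcnk2, Kcnk5 and Kcnk1. The 12 that fell were the inward rectifier genes Kcnj13, Kcnj1 and Kcnj16, the voltage-gated channel gene Kcnq1 with the accessory genes Kcne1 and Kcne4, and Kcnt1, Kcnab1, Kcnip4, Kcnc4, Kcnv2 and Kcnh1. At least 2-fold, 4 rose and 6 fell, or 8.16% and 12.2% of the 49, against 2.22% and 1.96% of all genes. With normexp background correction Kcne5, Kcnip4 and Kcnab1, for example, were under 2-fold. That alternative adds an offset of 50 to each signal and then applies quantile normalization. The offset itself lessens log2 differences of dim probes. Kcne5 entered the 49 only through the bromate arrays, so its difference followed in part from the filter. No overlap between the groups was found for 22 of the 49 (44.9%, against 41% of all genes), a share near that of all genes. The median difference was -0.08 over the 49 and -0.02 over all genes. With the slide as a block, which rests on the 5 arrays of the shared slide, 4 rose and 14 fell, and Kcnh1 and Kcnk2 did not pass (adjusted p = 0.0662 and 0.0890). Without water replicate 2 the number that fell was 5, and it was 7 without bromate replicate 2 or 3. Over all genes, 2088 fell with all arrays, 530 when water replicate 2 was omitted, 598 when bromate replicate 2 was and 918 when bromate replicate 3 was. Of the 17 calls 9 held on leaving out any 1 array, namely those of Kcnj1, Kcnj13, Kcne5, Kcnip4, Kcnk12, Kcnk5, Kcnk1, Kcnc4 and Kcnt1.

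**Figure D1:**
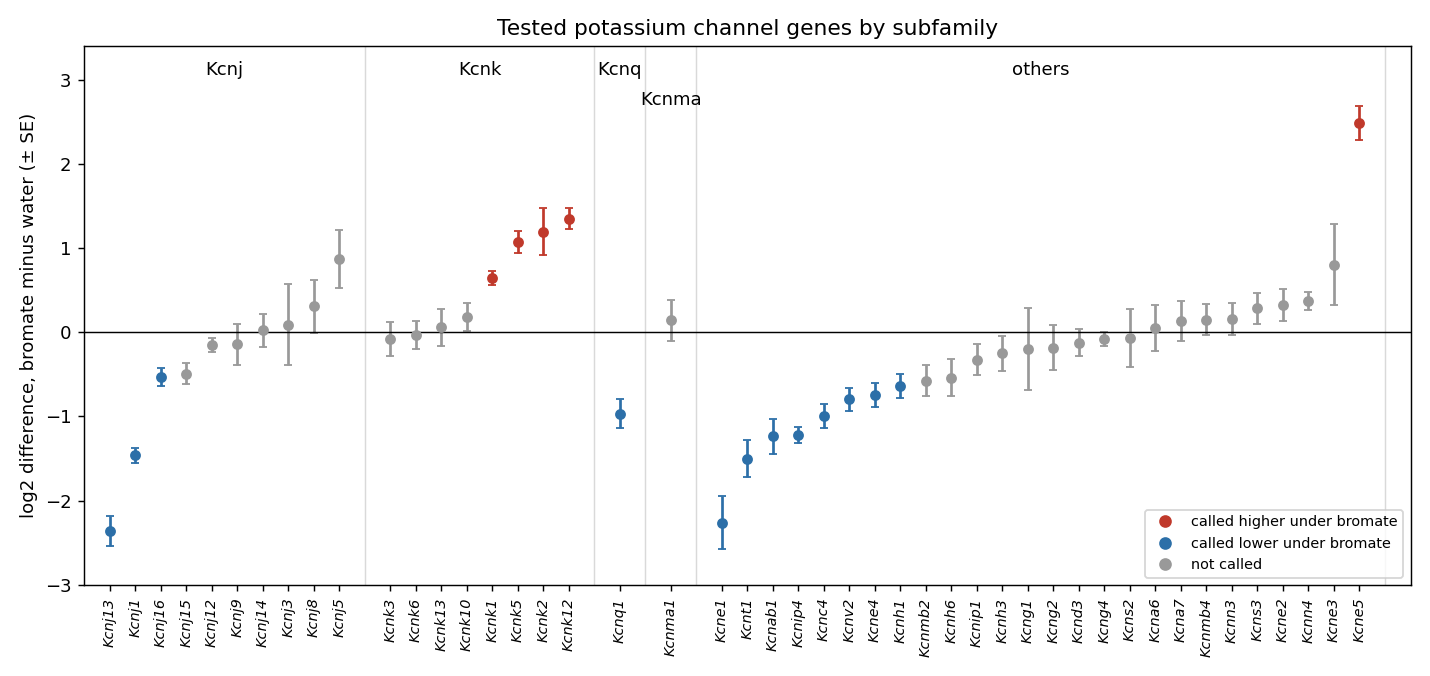
Log2 difference, bromate minus water, with its standard error for measured potassium channel genes, ordered by size within the subfamilies Kcnj, Kcnk, Kcnq, Kcnma and the rest. Not every gene that did not pass is drawn. Red points rose, blue points fell and grey points did not pass. All 4 coloured points among the Kcnk genes lie above 0, and all 3 among the Kcnj genes lie below it.

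Promoter sequence is shown for 4 genes whose channels are known from epithelia, 3 that fell (Kcnj1, Kcnj13 and Kcne1) and 1 that rose (Kcnk5), from 250 bases before to 50 bases after a RefSeq start on the build GRCr8. Capitals mark matches, on either strand, to any of 7 motifs: AP-1 (TGANTCA), the cyclic AMP response element (TGACGTCA), the antioxidant response element core (TGACNNNGC), an HNF1 motif (GTTAAT), the TATA box (TATAAA), the GC box (GGGCGG) and the E-box (CACGTG). In Kcnk5 an antioxidant response element match overlaps a GC box.
Kcnj1 chr8:39037742-39038041 (+): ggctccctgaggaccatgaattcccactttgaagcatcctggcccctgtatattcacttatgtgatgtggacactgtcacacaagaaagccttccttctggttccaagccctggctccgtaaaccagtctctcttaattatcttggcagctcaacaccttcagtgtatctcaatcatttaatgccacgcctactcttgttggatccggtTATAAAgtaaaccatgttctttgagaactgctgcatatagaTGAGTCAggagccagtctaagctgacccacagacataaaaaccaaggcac
Kcnj13 chr9:95518937-95519236 (-): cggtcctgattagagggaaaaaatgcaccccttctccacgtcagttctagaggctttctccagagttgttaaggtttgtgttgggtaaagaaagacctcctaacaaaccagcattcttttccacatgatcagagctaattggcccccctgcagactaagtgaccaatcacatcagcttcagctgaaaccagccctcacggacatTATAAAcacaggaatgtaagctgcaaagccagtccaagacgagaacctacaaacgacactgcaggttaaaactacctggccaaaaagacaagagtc
Kcne1 chr11:45076984-45077283 (-): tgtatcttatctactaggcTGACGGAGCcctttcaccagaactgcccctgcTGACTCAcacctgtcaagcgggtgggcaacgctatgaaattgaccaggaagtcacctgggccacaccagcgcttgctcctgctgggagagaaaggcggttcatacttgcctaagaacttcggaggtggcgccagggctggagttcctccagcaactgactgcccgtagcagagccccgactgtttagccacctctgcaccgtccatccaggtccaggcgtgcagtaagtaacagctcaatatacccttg
Kcnk5 chr15:4171375-4171674 (+): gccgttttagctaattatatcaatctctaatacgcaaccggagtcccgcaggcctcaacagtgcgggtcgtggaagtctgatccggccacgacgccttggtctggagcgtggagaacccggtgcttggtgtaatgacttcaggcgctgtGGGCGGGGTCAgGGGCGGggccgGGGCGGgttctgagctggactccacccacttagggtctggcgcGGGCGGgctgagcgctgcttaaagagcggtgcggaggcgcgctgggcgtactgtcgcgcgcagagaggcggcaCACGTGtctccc
Kcnj1 has a second RefSeq start, whose window held none of these motifs.

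Promoters were matched by symbol for 31 of the 49 measured genes, with 36 starts among them. Counts below are of starts: 12 from 10 genes that fell, 4 from 3 that rose and 20 from 18 that did not pass. AP-1 letters were found in 3 of 12 promoters of genes that fell, those of Kcne1, Kcnj1 and Kcnj16, in 0 of 4 promoters of genes that rose and in 0 of 20 of genes that did not pass, against 7.33% of 33469 promoters. The antioxidant response element core was found in 1 of 4 that rose (Kcnk5), 2 of 12 that fell (Kcne1 and Kcne4) and 1 of 20 that did not pass, against 12.1% of all. TATA letters were found in 2 of 12 promoters of genes that fell (Kcnj1 and Kcnj13), 0 of 4 of genes that rose and 0 of 20 of genes that did not pass, against 14.2% of all. GC boxes were found in 1 of 4 promoters of genes that rose, 6 of 12 of genes that fell and 11 of 20 of genes that did not pass, against 33.1% of all. Both starts of Kcnt1 are among those 6. The HNF1 motif was found at 1 gene that fell (Kcnt1) and 1 that did not pass, against 7.45% of all, and the E-box at 1 that rose (Kcnk5) and 1 that fell (Kcne4), against 6.42%. The cyclic AMP element was found in none of the 36 and in 1.83% of all promoters. These are matches of letters in a short window and do not show binding.

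Inward rectifiers that changed all fell. Of 10 measured Kcnj genes 3 fell, 0 rose by limma (1, Kcnj5, at an unadjusted p under 0.05) and 7 did not pass. That is 30% lower, against 7.59% of all genes. Kcnj1 encodes ROMK, the luminal channel through which the thick ascending limb recycles potassium and the collecting duct secretes it. Its level was -0.54, -0.57 and -0.45 in bromate replicates 1, 2 and 3, against 0.87, 0.93 and 1.03 in water replicates 1, 2 and 3. The groups did not overlap, and the gap between them was several times the spread within either. Kcnj1 was 2.76-fold lower (-1.46 ± 0.09, adjusted p = 0.00125). Whichever array was omitted, its adjusted p stayed at or below 0.0117. Its second probe gave -1.29 ± 0.08 (adjusted p = 0.00153).

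Kcnj13 encodes Kir7.1, an inward rectifier of transporting epithelia that hardly depends on outside potassium. Its level was -3.75, -3.59 and -3.13 under bromate, against -1.23, -1.15 and -0.99 on water. All bromate values were below all water values, and the level was 5.14-fold lower (-2.36 ± 0.18, adjusted p = 0.00251). With normexp background correction the difference was -1.55. Kcnj16 encodes Kir5.1, which pairs with Kir4.1 in the basolateral membrane of the distal nephron. It stood at 4.39, 4.28 and 4.35 under bromate, against 4.71, 4.88 and 5.03 on water, a 1.44-fold lower level (-0.53 ± 0.11, adjusted p = 0.0283). The groups of Kcnj16 did not overlap, but the call held only when water replicate 1 was the array left out, with adjusted p from 0.061 to 0.0943 without any other. Kcnj10, the gene of Kir4.1, passed the background flag on 0 arrays with each of its 2 probes and is given no difference.

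Kcnj15 encodes Kir4.2, a basolateral channel of the mouse proximal tubule. It was at -0.42, -0.57 and -0.80 under bromate, against -0.23, -0.06 and -0.02 on water and just missed the threshold (-0.49 ± 0.13, adjusted p = 0.0526), without overlap between the groups. Its second probe gave -0.50 ± 0.16 (adjusted p = 0.0921). The brightest probe passed with normexp background correction (adjusted p = 0.0357), with the filter of all 6 arrays (0.0431) and with an intensity trend (0.0394). Kcnj5, which encodes a G protein-gated channel subunit, had -0.68, -1.20 and -0.43 under bromate, against -1.24, -1.37 and -2.31 on water, also without overlap but with a wide spread (0.87 ± 0.34, adjusted p = 0.139). Kcnj8, the pore gene of a vascular ATP-sensitive channel, overlapped between groups (0.31 ± 0.31, adjusted p = 0.535). In Kcnj3, a G protein-gated subunit gene, bromate replicate 3 stood at -0.71 and the other bromate arrays at -2.54 and -2.33. The water arrays of Kcnj3 lay between -2.08 and -1.88. Kcnj12, Kcnj14 and Kcnj9, which encode Kir2.2, Kir2.4 and a further G protein-gated subunit, differed by -0.15 ± 0.08, 0.02 ± 0.20 and -0.14 ± 0.25.

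Segment markers moved beside the Kcnj falls. The marker counts of this paragraph stand against 7.59% of all genes that fell and 6.87% that rose. Of 10 thick ascending limb markers 7 fell and 1 rose (70% and 10%). Their mean level was 1.69 to 1.97 on the bromate arrays, against 3.03 to 3.63 on the water arrays. Of 7 markers of the distal convoluted and connecting tubule 5 fell and 1 rose, with means of 2.06 to 2.16 on the bromate arrays, against 2.56 to 3.16 on the water arrays. Principal cell markers, whose cells carry ROMK in the collecting duct, had 3 of 9 that fell and 6 that did not pass. By sign, 5 of the 9 were below 0 and 4 above it. Krt18, above 0 (0.66 ± 0.19, adjusted p = 0.0669), is also in the injured tubule list given below. Principal cell means were 2.65 to 2.85 on the bromate arrays, against 2.75 to 3.24 on the water arrays, with overlap. All 11 intercalated cell markers fell, with means of 0.57 to 0.71 on the bromate arrays, against 2.64 to 2.92 on the water arrays. Whole cortex was measured, so fewer cells of a type and less RNA per cell cannot be told apart, and the part of these markers in the Kcnj differences was not tested.

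**Figure D2:**
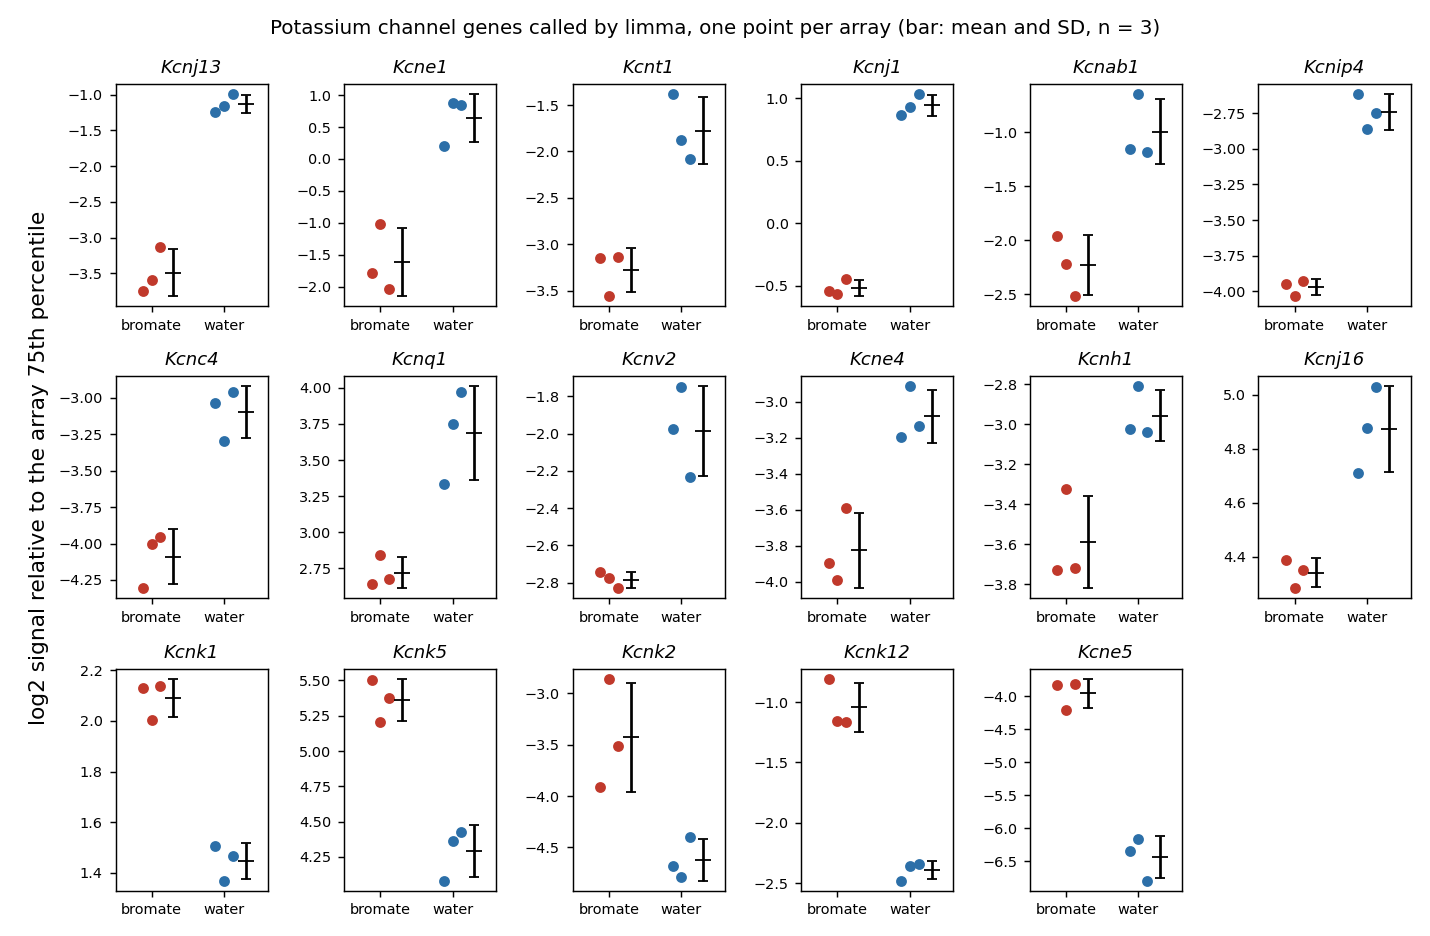
Log2 signal relative to the 75th percentile of the array for the 17 potassium channel genes that rose or fell, 1 point per array, bromate left and water right, each beside its mean and SD (n = 3). Vertical scales differ between panels, and in no panel do the groups overlap.

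Tandem-pore channels that changed all rose. Of 8 measured Kcnk genes 4 rose, 0 fell by limma (0 also at an unadjusted p under 0.05) and 4 did not pass. Over all genes 6.87% rose and 7.59% fell. Kcnk5 encodes TASK-2, an alkali-activated channel of the basolateral membrane of the proximal tubule. Its level was 5.51, 5.21 and 5.37 in bromate replicates 1, 2 and 3, against 4.08, 4.36 and 4.43 in water replicates 1, 2 and 3. Kcnk5 was 2.1-fold higher, without overlap between the groups (1.07 ± 0.13, adjusted p = 0.00843, at most 0.0377 whichever array was omitted). Kcnk1 encodes TWIK-1, a weakly conducting channel found along the nephron. It was at 2.13, 2.01 and 2.14 under bromate, against 1.51, 1.37 and 1.47 on water, a tight and separate pair of groups (1.56-fold, 0.64 ± 0.08, adjusted p = 0.0104). The dimmer second probe of Kcnk1 moved the same way and just missed the threshold (0.34 ± 0.09, adjusted p = 0.0527).

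Kcnk12 encodes THIK-2, a tandem-pore subunit that is mostly silent on its own. It stood at -0.81, -1.16 and -1.16 under bromate, against -2.48, -2.35 and -2.34 on water, and bromate replicate 1 was the highest array. The rise was 2.55-fold (1.35 ± 0.12, adjusted p = 0.00381), and 0.83 ± 0.14 with its second probe (adjusted p = 0.0172). Kcnk2 encodes TREK-1, which opens on membrane stretch. It had -3.91, -2.86 and -3.51 under bromate, against -4.68, -4.79 and -4.39 on water, and on the water arrays 2 of 3 readings were well above background. The 2.29-fold rise of Kcnk2 (1.19 ± 0.28, adjusted p = 0.042) held only when bromate replicate 1 was the array left out, with adjusted p from 0.0658 to 0.126 without any other. The other measured tandem-pore genes lay close to 0: Kcnk10 (TREK-2) differed by 0.18 ± 0.16, Kcnk13 (THIK-1) by 0.06 ± 0.22, Kcnk6 (TWIK-2) by -0.03 ± 0.16 and Kcnk3 (TASK-1) by -0.08 ± 0.20. Among Kcnk13, Kcnk6 and Kcnk3 the sign changed with the array left out, and for Kcnk13 also with the probe.

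Markers of injured tubule cells were higher on the same bromate arrays. Of 8 measured 4 rose (50%, against 6.87% of all genes) and 0 fell. Their mean was 2.85 to 3.67 on the bromate arrays, against 0.29 to 0.67 on the water arrays. Proximal tubule markers, whose cells carry TASK-2, moved the other way: 5 of 12 fell and 0 rose. That is 41.7% lower, against 7.59% of all genes. The proximal tubule means were 5.93 to 5.95 on the bromate arrays, against 6.28 to 6.37 on the water arrays. The part of either list in the Kcnk differences was not tested.

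Kcnq1 and its accessory subunit genes were the next group. Kcnq1 encodes the pore that forms, with the minK subunit encoded by Kcne1, a luminal potassium channel of the proximal tubule. Kcnq1 was at 2.64, 2.84 and 2.68 in bromate replicates 1, 2 and 3, against 3.33, 3.75 and 3.97 in water replicates 1, 2 and 3. The bromate arrays lay below all water arrays (1.95-fold lower, -0.97 ± 0.18, adjusted p = 0.0229). This call held only when water replicate 1 was the array left out, with adjusted p from 0.0572 to 0.0822 without any other. Of its other probes 1 fell (-0.86 ± 0.20, adjusted p = 0.0394) and 1 did not pass (-0.72 ± 0.23, adjusted p = 0.0875).

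Kcne1 had a larger fall than Kcnq1. It was at -1.79, -1.02 and -2.03 in bromate replicates 1, 2 and 3, against 0.21, 0.87 and 0.85 in water replicates 1, 2 and 3, with bromate replicate 2 nearest to the water arrays. The level was 4.79-fold lower (-2.26 ± 0.32, adjusted p = 0.0122, and 0.0519 without water replicate 2). Kcne4, whose subunit inhibits KCNQ1 channels, was 1.68-fold lower (-0.74 ± 0.14, adjusted p = 0.0246). Its levels were -3.89, -3.99 and -3.59 under bromate, against -3.20, -2.91 and -3.13 on water, and the call ended without water replicate 2 or 3 or bromate replicate 1 or 2, with adjusted p from 0.0672 to 0.0811.

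Kcne5, another subunit that damps KCNQ1 currents, went the opposite way. It read -3.83, -4.21 and -3.82 under bromate, against -6.34, -6.17 and -6.80 on water. It was well above background on all 3 bromate arrays and on 0 water arrays, so the difference of 2.48 ± 0.20 (adjusted p = 0.00271) is given as a bound of at least 2.07-fold higher. The bound holds for the processed signal only. Normexp background correction, with its offset of 50 and quantile normalization, gave a difference of 0.43 (adjusted p = 0.0154). The parts of the offset, the correction and the normalization in that value were not separated. The bound sets the bromate mean against a floor on each water array, which is the probe's own signal or, if higher, the dimmest signal that passed the background flag. Kcne2 and Kcne3, which make KCNQ1 open at all voltages, did not pass (0.33 ± 0.19 and 0.80 ± 0.48), and Kcne3 was well above background on 2 bromate arrays and 1 water array. Of the 5 measured Kcne genes 1 rose and 2 fell, 20% and 40%, against 6.87% and 7.59% of all genes. The 1 that rose, Kcne5, passed the filter through the bromate arrays only.

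The remaining falls were in voltage-gated channels, a sodium-activated channel and their accessory subunits. Kcnt1 encodes Slack, a sodium-activated channel known mainly from neurons. It was at -3.15, -3.55 and -3.14 under bromate, against -1.38, -1.88 and -2.08 on water, without overlap (2.83-fold lower, -1.50 ± 0.22, adjusted p = 0.0131). Kcnip4, the gene of a calcium-binding subunit of Kv4 channels, was at -3.94, -4.03 and -3.93 under bromate, against -2.61, -2.86 and -2.75 on water. That was 2.34-fold lower, with narrow groups (-1.22 ± 0.09, adjusted p = 0.00259), and its second probe gave -1.23 ± 0.14 (adjusted p = 0.00635). Kcnc4, which encodes Kv3.4, had -4.31, -4.00 and -3.96 under bromate, against -3.03, -3.30 and -2.96 on water and was 1.99-fold lower (-0.99 ± 0.14, adjusted p = 0.0128).

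Kcnab1 encodes a cytosolic beta subunit of Kv1 channels. Its brightest probe was at -1.96, -2.22 and -2.51 under bromate, against -1.16, -0.64 and -1.18 on water and fell 2.36-fold (-1.24 ± 0.21, adjusted p = 0.0188). The dimmer probe of Kcnab1 spread from -7.16 to -3.21 over the bromate arrays and did not pass (-0.90 ± 0.95, adjusted p = 0.553), and the mean of both probes did not pass (adjusted p = 0.236). Leaving out water replicate 2, bromate replicate 2 or bromate replicate 3 also ended the Kcnab1 call (adjusted p up to 0.0651), as it did for Kcnv2 (up to 0.0666). Kcnv2 encodes a silent subunit that joins Kv2 channels and was at -2.74, -2.78 and -2.83 under bromate, against -1.97, -1.75 and -2.23 on water (1.74-fold lower, -0.80 ± 0.13, adjusted p = 0.0191). Kcnh1, the gene of an ether-a-go-go channel, read -3.73, -3.33 and -3.72 under bromate, against -3.03, -2.81 and -3.04 on water, without overlap. Its fall of 1.55-fold (-0.63 ± 0.14, adjusted p = 0.0384) held only when bromate replicate 2 was the array left out, with adjusted p from 0.0662 to 0.117 without any other.

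Markers of neurons, cells in which several of these channels are best known, were measured for 5 of 10 entries. Tubb3 and Uchl1 rose (40%, against 6.87% of all genes) and the other 3 did not pass. Of these, Snap25 and Th differed by -0.24 ± 0.19 and -0.30 ± 0.20, and Nefm by 0.35 ± 0.48. The Nefm level was 2.14 in bromate replicate 1, against 0.46 and 0.45 in bromate replicates 2 and 3. The means of the list were -1.28 to -0.98 on the bromate arrays, against -1.87 to -1.65 on the water arrays. Syt1, Rbfox3, Gap43, Nefl and Dbh were not measured. The part of these markers in the differences of Kcnt1, Kcnip4 and Kcnc4 was not tested.

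Calcium-activated channels did not pass. Kcnma1, the pore gene of BK, the flow-stimulated channel of the distal nephron, was at -1.69, -2.08 and -1.87 in bromate replicates 1, 2 and 3, against -2.53, -1.63 and -1.89 in water replicates 1, 2 and 3. Bromate values lay within the water range (0.14 ± 0.25, adjusted p = 0.731), and the difference was -0.12 without water replicate 1. The BK accessory genes Kcnmb2 and Kcnmb4 differed by -0.57 ± 0.18 (adjusted p = 0.0874) and 0.15 ± 0.19. A second probe of Kcnmb2 fell (-1.03 ± 0.12, adjusted p = 0.00653), and the first passed with the slide as a block (adjusted p = 0.0327). Kcnn4, which encodes the intermediate-conductance channel of red cells, lymphocytes and some epithelia, had no overlap between groups but did not pass (0.37 ± 0.11, adjusted p = 0.0691), and Kcnn3 differed by 0.15 ± 0.19. Of 12 leukocyte markers 1 rose, or 8.33%, near the 6.87% of all genes. Their means were -0.64 to -0.02 on the bromate arrays, against -0.45 to -0.24 on the water arrays.

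The other measured genes did not pass either. Among pore genes of voltage-gated channels these included Kcna6 (0.05 ± 0.27), Kcna7 (0.14 ± 0.24), Kcnd3 (-0.12 ± 0.16), Kcnh3 (-0.25 ± 0.20) and Kcnh6 (-0.54 ± 0.22). Among silent or accessory subunit genes they were Kcng1 (-0.20 ± 0.49), Kcng2 (-0.18 ± 0.27), Kcng4 (-0.08 ± 0.08), Kcns2 (-0.07 ± 0.34), Kcns3 (0.28 ± 0.18) and Kcnip1 (-0.33 ± 0.18). A dimmer probe of Kcng2 fell (-0.60 ± 0.15, adjusted p = 0.0483). In all, 27 of the 32 genes that did not pass differed by less than 0.5, and 5 of the 32 had groups that did not overlap (Kcnj15, Kcnj5, Kcnj12, Kcnn4 and Kcnmb2). Over all genes tested, those called included, 41% had groups without overlap. The other 42 Kcn genes with a named probe were not tested: 32 were well above background on 0 arrays with any probe and 10 on 1 or 2. Of 31 channel genes known from the kidney, 23 were measured, and Kcnj2, Kcnj10, Kcnj11, Kcna1, Kcna10, Kcnmb1, Kcnmb3 and Kcnt2 were not. At the edge of the filter, Kcng4, Kcne3 and Kcne5 passed with 3 arrays, while Kcnj2, Kcna10, Kcnd1 and Kcnt2 missed it with 2.

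For 16 measured genes 1 or more further probes passed the filter, 19 in all. The plot of other probes against the brightest shows 16 of the 19 on the same side of 0. Of the 7 that belong to genes that rose or fell, 4 passed the test in the same direction (Kcnj1, Kcnip4, Kcnk12 and 1 of Kcnq1) and 0 passed it in the opposite one. The exceptions by sign were all in genes that did not pass.

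**Figure D3:**
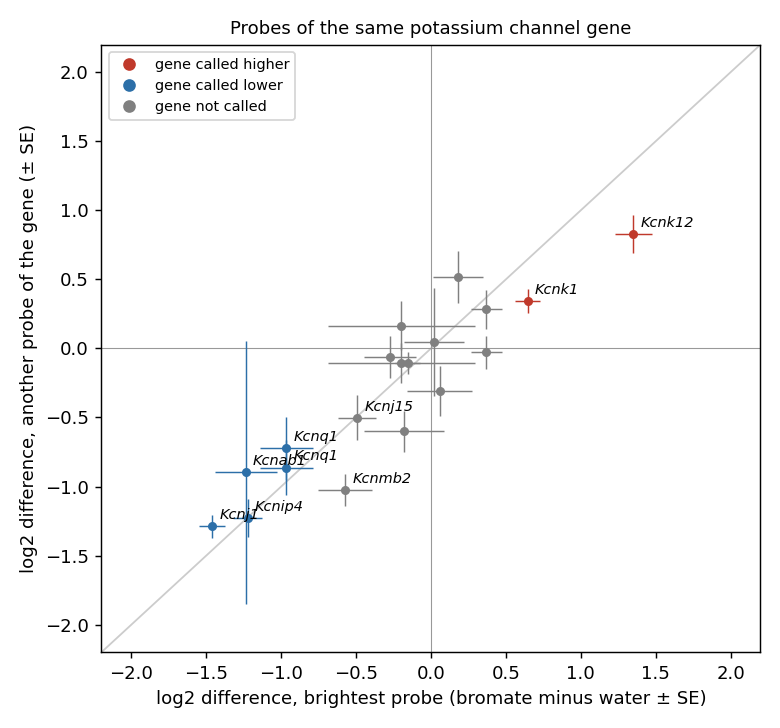
Log2 difference (bromate minus water ± standard error) of the 19 other measured probes of potassium channel genes against that of the brightest probe of the same gene, with the line of equality. All 7 other probes of genes that rose or fell lie on the same side of 0 as the brightest probe, and 4 of the 7 passed the threshold themselves.

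Other genes of potassium transport and its control changed only downward by limma. Of 32 measured members of that list 13 fell, 0 rose (2 at an unadjusted p under 0.05, Slc12a4 and Fxyd5) and 19 did not pass. The 40.6% that fell stand against 7.59% of all genes, and the median was -0.41 against -0.02. The members with the largest change were Atp12a, a proton-potassium pump of the collecting duct (4.93-fold lower, -2.30 ± 0.37), the calcium-sensing receptor gene Casr (4.76-fold, -2.25 ± 0.18), the thiazide-sensitive carrier gene Slc12a3 (3.68-fold, -1.88 ± 0.38), and Wnk1, a kinase gene of the pathway that sets that carrier (3.25-fold, -1.70 ± 0.14). After these came Bsnd, which encodes the chloride channel subunit barttin (2.61-fold, -1.38 ± 0.16), and the carrier gene Slc12a1, which takes up the potassium that ROMK returns to the thick limb lumen (2.59-fold, -1.38 ± 0.21). Their adjusted p ran from 0.00271 to 0.0293. The count that fell was 7 on omitting water replicate 2, and also on omitting bromate replicate 2. Of the 13, 6 are also among the segment markers used here.

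Slc12a1 itself was at 3.49, 3.26 and 3.52 under bromate, against 5.19, 4.80 and 4.40 on water, and Wnk1 at 3.17, 3.57 and 3.55 under bromate, against 5.05, 5.07 and 5.28 on water. Both had groups that did not overlap. Atp1b1, which encodes a beta subunit of the sodium pump that drives potassium entry at the basolateral side, was close to 0 (-0.01 ± 0.10). The epithelial sodium channel genes Scnn1a, Scnn1b and Scnn1g, which provide the driving force for potassium secretion, did not pass (-0.48 ± 0.20, -0.76 ± 0.19 and -0.53 ± 0.20). Scnn1b just missed the threshold (adjusted p = 0.051, against 0.156 for Scnn1a and 0.129 for Scnn1g). Scnn1a and Scnn1b had groups that did not overlap, with bromate lower. Nr3c2, the gene of the mineralocorticoid receptor through which aldosterone raises potassium secretion, fell 2.14-fold (-1.10 ± 0.11, adjusted p = 0.00542), while its target gene Sgk1 did not pass (0.20 ± 0.55).

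Partner proteins of the channels that carry other symbols gave 1 rise and 1 fall among 13 measured, 7.69% each way, near the 6.87% and 7.59% of all genes. Cav1, which encodes caveolin 1, was 2.42-fold lower (-1.28 ± 0.12, adjusted p = 0.00406), and Lrrc52, a BK-like channel gamma subunit gene, had a difference of 1.79 ± 0.37 (adjusted p = 0.0317). Lrrc52 was at -4.05, -4.24 and -3.85 under bromate, against -6.28, -4.97 and -6.26 on water, and was well above background on 1 water array. The sulphonylurea receptor genes Abcc8 and Abcc9 did not pass (-1.22 ± 1.23 and -0.69 ± 0.32). The median of this list was -0.19.

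**Figure D4:**
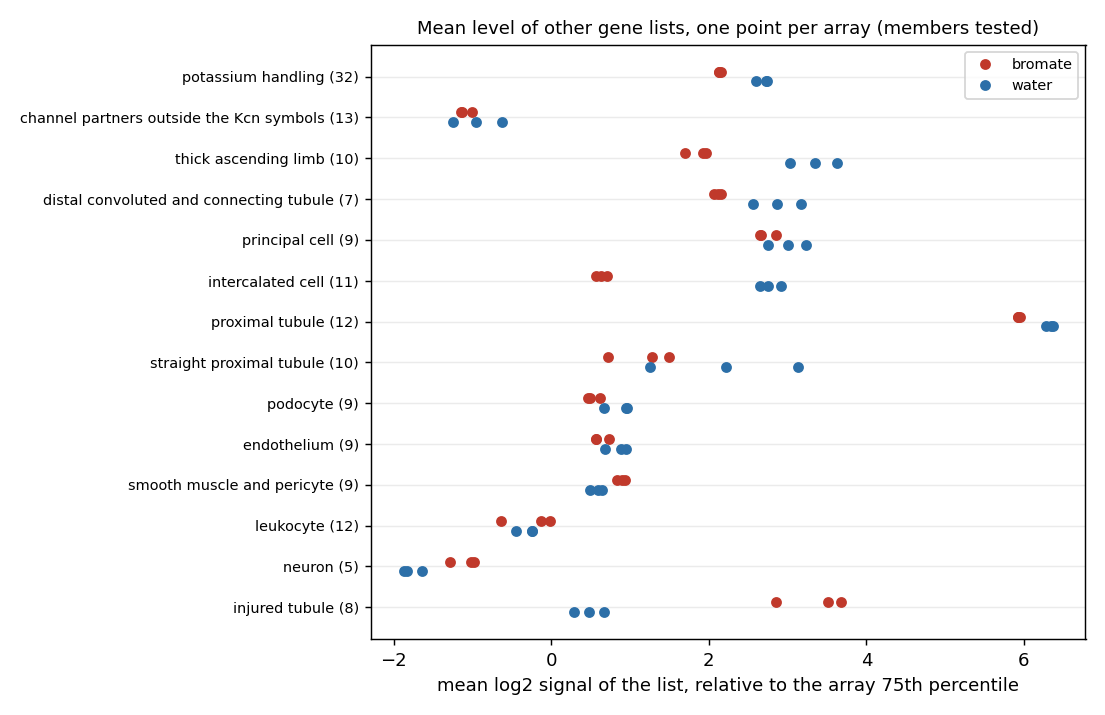
Mean log2 signal of each other gene list, relative to the 75th percentile of the array, with 1 point per array, bromate above water in each row and the number of members measured in brackets. Intercalated cell and thick ascending limb means lie lower on all bromate arrays, injured tubule means higher, and the straight proximal tubule list ranges widely over the water arrays.

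Other marker lists were measured as well. Straight proximal tubule markers had means of 0.71 to 1.49 on the bromate arrays, against 1.26 to 3.13 on the water arrays, and 0 of 10 passed the limma test (5 at an unadjusted p under 0.05), with overlapping groups in 5. Podocyte markers had 2 of 9 that fell and means of 0.47 to 0.62 on the bromate arrays, against 0.67 to 0.97 on the water arrays. Of 9 endothelial markers 1 rose and 2 fell, with means of 0.57 to 0.74 on the bromate arrays, against 0.68 to 0.94 on the water arrays. Of 9 smooth muscle and pericyte markers, cells that carry Kcnj8, 2 rose, with means of 0.83 to 0.93 on the bromate arrays, against 0.49 to 0.64 on the water arrays. All these counts stand against 6.87% of all genes that rose and 7.59% that fell.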

How the data were processed

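Total RNA of 6 rats was hybridised to single-colour Agilent arrays, and the deposited scanner files give each spot's intensity, background-subtracted within the array with Feature Extraction 10.7 from Agilent (per the submitters' processing notes), with flags for spots well above background. The deposited value table holds a ratio, found here to be the processed intensity over the array's 75th percentile; it served as an alternative. From the intensity, log2 values minus the array's 75th percentile were computed, outlier spots were left out, and a probe entered if well above background on at least 3 arrays. Accessions were matched to RefSeq symbols (GRCr8) for 28206 probes, 45.8% of those that are not controls. The brightest probe stood for a gene, and probes without a symbol were merged by accession. The groups were compared for 27506 genes with limma 3.58.1 in R 4.3.3 (lmFit, eBayes), with Benjamini-Hochberg adjustment over all of them, after a test on simulated data. Every Kcn gene that passed, 31 channel genes known from the kidney and up to 6 changed members of the 2 related lists were named by rule, the others after their values were seen. The Kcn genes and all lists were chosen with earlier results of these data known. Promoter sequences are RefSeq's. Alternatives covered normalization, background, filter, probe, variance, slide, replicate number and each array left out. The values of some genes that entered the counts are not reported here.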

Additional observations from a re-analysis of the deposited data

How the results depend on the processing

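All 17 calls of potassium channel genes kept their direction in every alternative that gave a value. They also stayed past the threshold with quantile normalization, the other scaling percentile, normexp background correction, the deposited value table and an intensity trend. Normexp was run with an offset of 50, which itself lessens log2 differences of dim probes, and with quantile normalization. It lessened the difference of Kcne5 to 0.43, against 2.48, and that of Kcnj13 to -1.55, against -2.36. It also lessened those of Kcnip4 (-0.81, against -1.22) and Kcnab1 (-0.93, against -1.24), which were then under 2-fold. Kcnc4 (-0.63, against -0.99) and Kcne4 (-0.40, against -0.74) shrank as well. The mean of a gene's probes ended 1 call (Kcnab1), the slide as a block 2 (Kcnh1 and Kcnk2) and no filter on dim probes 6. Requiring all 6 arrays left 3 genes that rose, against 5. Normexp and the intensity trend each gave 1 potassium handling gene that rose, against 0. Leaving out 1 array gave 4 to 6 channel genes that rose and 5 to 14 that fell, the lowest without water replicate 2 and the highest without water replicate 1. For potassium handling genes it gave 0 that rose and 7 to 14 that fell. Same-numbered arrays deviated with correlations of 0.0506, 0.0699 and -0.0953, so the numbers were not taken to pair the animals. With the replicate block 3 channel genes rose and 5 fell, 8 of the 17 calls held, and 8 handling genes fell. Among the genes named by rule, reversals were found only where the gene had not passed. These were Kcnk13 (-0.13 with the mean of probes, -0.31 with its second probe, -0.068 to 0.295 leaving out 1 array), Kcnk3 (0.0545 with normexp, -0.18 to 0.10 leaving out 1 array) and Kcnma1 (-0.12 with the slide as a block, -0.12 to 0.33 leaving out 1 array). Further ones were Kcnk6 (-0.12 to 0.14 leaving out 1 array), Kcnmb4 (-0.0362 to 0.28) and Kcnn4 (-0.0284 with 1 other probe, but 0.284 with another). Outside that rule, signs of the other uncalled channel genes are reported here by probe only, although the alternatives were fitted for all genes. By probe, 1 of the 2 other probes of Kcng1 had the opposite sign (0.17, against -0.20). The cause of these changes was not tested. Signal over background limits the comparison for the 42 Kcn genes that were not tested.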
